A study of Mus musculus with 18 samples.

Results

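Interferon-stimulated genes are the genes that cells transcribe when an interferon binds its receptor, many of which act against viruses. The 40 genes described here were listed by name and looked up among the gene names of the deposited table, and all 40 were among its 23418 genes. Of the 40, 36 reached 1 RPKM (reads scaled by transcript length and by library size) in 3 or more of the 18 libraries and were tested together with all 11238 genes that passed this filter. Oasl1, Mx1, Mx2 and Ifi44 did not pass it and are given as values only. The list was not chosen from these measurements by rule, but earlier results of the same data were known when it was drawn up.

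In the interferon pathway, receptor-bound kinases phosphorylate STAT proteins, among them STAT2, which acts with IRF9 in the factor ISGF3. ISGF3 binds interferon-stimulated response elements in promoters and raises transcription of sensors of viral RNA, of enzymes that degrade RNA or block translation, and of its own parts. IRF7, a member of the same family as IRF9, is itself induced and drives transcription of interferon genes, and in myeloid cells a low level of the program is often present without infection.

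PolyA RNA was measured in leukemia cells of the mouse strain C57BL/6 that had been transformed by one of 3 fusion constructs, MLL-AF9, MLL-AF6 or MLL-AF1p, each of which joins the amino-terminal part of the histone methyltransferase MLL to a different partner protein. Each construct's cells then spent 6 days in culture with MI-2-2 at 6 µM, a compound that blocks the binding of menin to MLL, or with DMSO, the solvent, at 0.25%, which the treated cultures also received. Medium was changed and compound or solvent renewed on day 3. The 6 groups held 3 libraries each, every group carried a fusion, and cells without a fusion were not among them. The labels name neither the vector nor its promoter and do not say whether a construct stands for 1 clone or for several transformations, so a construct and the line that carries it cannot be told apart. They also do not say that the 3 libraries of a group came from separate cultures, so the p-values cover no more than the spread from library to library, and that spread may be technical. The question named by the series title is whether inhibition depends on the fusion partner.

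Depth was 21.18 to 30.67 M counted reads in the MLL-AF9 and MLL-AF6 libraries and 48.88 to 56.3 M in those of MLL-AF1p. Of 8 markers of the labelled cell type, 5 were above 7 RPKM in every library, among them the pan-leukocyte gene Ptprc at 16 to 40.6, the progenitor receptor gene Kit at 7.36 to 14.3 and the granulocyte protease gene Elane at 845 to 5604. The other 3 came close to 0 in some library, with lowest values of 0.0276 for Mpo, 0.298 for Meis1 and 0.459 for Csf3r. Markers of other lineages were mixed. Of 10 markers of plasmacytoid dendritic cells, a main source of type I interferon, Ly6d was at 0 in every library and Siglech, Klk1, Ccr9 and Pacsin1 stayed at or below 0.0672, while Lair1 reached 22.1, Cox6a2 10.4, Tcf4 3.14 and Runx2 3.01. Of 7 conventional dendritic markers, H2-Ab1 reached 28.3 and Itgax 13.8, with Zbtb46 and Cd209a at or below 0.0155. Mcpt8, a basophil marker, lay between 5.08 and 27.0, Pf4 of megakaryocytes reached 4.39 and Cd79b of B cells 2.44, while 3 of 6 B cell markers and 2 of 7 T and NK cell markers were at 0 in all libraries.

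Promoter sequences are shown first because response elements are what the members' shared regulation is known for. RefSeq promoter windows of 300 bases, 250 before and 50 after the transcription start (build GRCm38.p6, a later build than the mm9 genome named in the submitters' processing notes), were found for 31 of the 40 members. Both strands were searched for the core of the response element, which is GAAA, any 2 bases and GAAA again, and for TTCNNNGAA, the gamma-activated site. The response element core was in a window of 14 of the 31 members (45.2%), against 3.99% of the 27025 genes in the table. The gamma site was in a window of 7 of the 31, against 9.55% of all genes. Both motifs were in windows of 3 members, sharing bases in 1 window, and 13 members held neither. A match is a run of letters and was not tested as a binding site. Below, each written 5′ to 3′ on the strand of its gene, are windows of 5 members with the core, on either strand, in capitals, chosen to cover the different responses described further on, and of Irf7, which held none and whose change was among the largest of the regulators.
Isg15, encoding the ubiquitin-like ISG15 (chr4:156200769-156201068, minus strand, 3 overlapping matches whose first bases lie −78, −72 and −66 from the start): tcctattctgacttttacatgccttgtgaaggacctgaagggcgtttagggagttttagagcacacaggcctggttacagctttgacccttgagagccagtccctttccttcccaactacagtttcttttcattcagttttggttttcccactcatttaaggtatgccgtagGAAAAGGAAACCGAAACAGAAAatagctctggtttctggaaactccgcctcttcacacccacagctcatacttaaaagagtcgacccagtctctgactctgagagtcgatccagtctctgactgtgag
Oas3, encoding a sensor of double-stranded RNA (chr5:120777610-120777909, minus strand, first base at −75): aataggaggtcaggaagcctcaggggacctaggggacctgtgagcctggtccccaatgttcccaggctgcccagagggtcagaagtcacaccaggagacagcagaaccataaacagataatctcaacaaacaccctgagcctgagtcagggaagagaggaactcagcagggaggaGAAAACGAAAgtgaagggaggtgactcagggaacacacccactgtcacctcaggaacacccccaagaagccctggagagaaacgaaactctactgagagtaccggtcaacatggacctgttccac
Ddx58, encoding the RNA sensor RIG-I (chr4:40239776-40240075, minus strand, first base at 2): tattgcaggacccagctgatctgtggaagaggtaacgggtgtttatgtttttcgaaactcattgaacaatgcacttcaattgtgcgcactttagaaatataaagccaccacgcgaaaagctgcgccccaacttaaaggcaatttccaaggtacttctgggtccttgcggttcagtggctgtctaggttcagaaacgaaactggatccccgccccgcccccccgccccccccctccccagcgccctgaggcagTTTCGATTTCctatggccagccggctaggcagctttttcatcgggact
Ifit1, encoding a protein that binds foreign RNA ends (chr19:34640639-34640938, plus strand, first bases at −104 and −85): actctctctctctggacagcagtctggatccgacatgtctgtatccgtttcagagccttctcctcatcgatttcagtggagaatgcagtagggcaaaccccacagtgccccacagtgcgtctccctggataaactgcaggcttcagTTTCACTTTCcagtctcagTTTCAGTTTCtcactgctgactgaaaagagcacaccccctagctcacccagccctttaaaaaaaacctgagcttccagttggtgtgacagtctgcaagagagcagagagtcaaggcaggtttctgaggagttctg
Bst2, encoding tetherin, which holds budding virions at the membrane (chr8:71537423-71537722, minus strand, 2 overlapping matches at −130 and −124): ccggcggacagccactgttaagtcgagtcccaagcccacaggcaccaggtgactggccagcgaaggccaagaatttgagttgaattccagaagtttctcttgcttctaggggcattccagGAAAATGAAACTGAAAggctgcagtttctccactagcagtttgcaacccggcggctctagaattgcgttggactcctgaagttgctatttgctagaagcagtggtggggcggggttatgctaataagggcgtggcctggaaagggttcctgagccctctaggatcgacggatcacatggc
Irf7 (chr7:141266375-141266674, minus strand, no match): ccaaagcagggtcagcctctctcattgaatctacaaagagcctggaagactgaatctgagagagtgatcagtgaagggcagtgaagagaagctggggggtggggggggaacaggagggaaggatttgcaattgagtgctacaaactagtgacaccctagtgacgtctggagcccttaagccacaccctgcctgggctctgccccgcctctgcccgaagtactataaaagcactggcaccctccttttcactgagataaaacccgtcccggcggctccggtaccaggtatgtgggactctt

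The response of the members to MI-2-2 differed between constructs in direction. In MLL-AF9 cells, 33 of the 36 tested members rose and 0 fell, where 28.5% of all genes rose and 27.9% fell (limma, adjusted p under 0.05 over all genes); at an unadjusted p under 0.05 and by voom on reads recovered from the RPKM, 0 members fell as well. In MLL-AF6 cells, 24 members fell and 1, Bst2, rose, where 38.9% of all genes fell and 18% rose. In MLL-AF1p cells, 13 members rose and 4 fell, where 19.1% of all genes rose and 26.3% fell. Ifit1 and Ifit3 passed the filter through treated libraries alone, and of the other 34 members 31 rose with MLL-AF9, 24 fell with MLL-AF6 and 11 rose with MLL-AF1p. The summed conventional dendritic markers went from 21.8 to 29.6 RPKM in the MLL-AF6 controls to 15.7 to 17.5 in the treated libraries. With MLL-AF1p the sum went from 24.1 to 27.0 to 3.93 to 4.69. With MLL-AF9 it was 3.67 to 10.4 under DMSO and 5.82 to 6.07 with MI-2-2. Only 2 of these 7 markers passed the filter, and 1 rose and 1 fell in each construct. The part of these markers in the members' changes was not tested. The members' median log2 fold change was 1.23 with MLL-AF9 (range −0.15 to 3.31), beside −0.00 over all genes tested. With MLL-AF6 it was −0.56 (range −2.0 to 0.50), beside −0.16, and with MLL-AF1p it was 0.16 (range −0.93 to 2.41), beside −0.06. The all-gene balance in MLL-AF6 depends on scaling, with 2025 genes higher and 4377 lower as deposited and 2441 higher and 3384 lower when every library is set to the same median, and with that scaling 21 members fell.

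**Figure D1:**
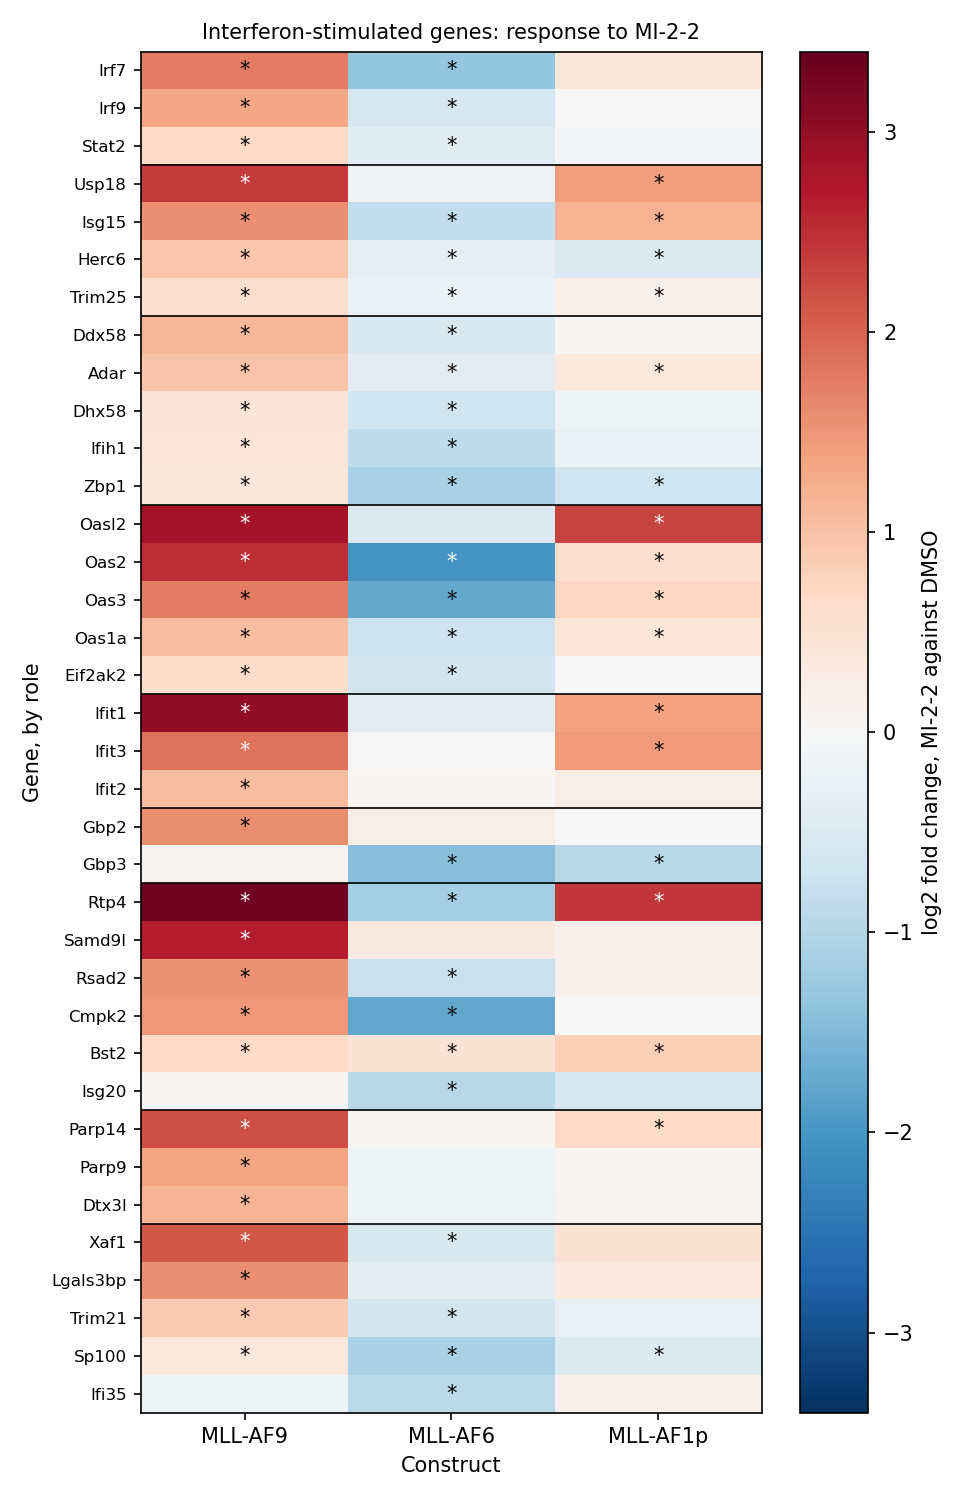
Log2 fold change of the 36 tested members with MI-2-2 against DMSO in each construct (color scale), grouped by role with lines between roles; an asterisk marks an adjusted p under 0.05 by limma. The MLL-AF9 column has 33 rises, the MLL-AF6 column 24 falls and 1 rise, and the MLL-AF1p column 13 rises and 4 falls.

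A rise in MLL-AF9 together with a fall in MLL-AF6 was called for 21 of the 36 members (58.3%), against 338 of the 11238 genes (3.01%). The 21 were Stat2, Irf9, Irf7, Isg15, Herc6, Trim25, Ddx58, Ifih1, Dhx58, Zbp1, Adar, Oas1a, Oas2, Oas3, Eif2ak2, Rsad2, Cmpk2, Rtp4, Xaf1, Trim21 and Sp100. Of these, 7 also rose in MLL-AF1p (Isg15, Trim25, Adar, Oas1a, Oas2, Oas3 and Rtp4), 3 fell there (Herc6, Zbp1 and Sp100) and 11 had no call there. Bst2 was the member called higher in all 3 constructs. Gbp3 fell in MLL-AF6 and MLL-AF1p with no call in MLL-AF9, and Isg20 and Ifi35 fell in MLL-AF6 with no call elsewhere.

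**Figure D2:**
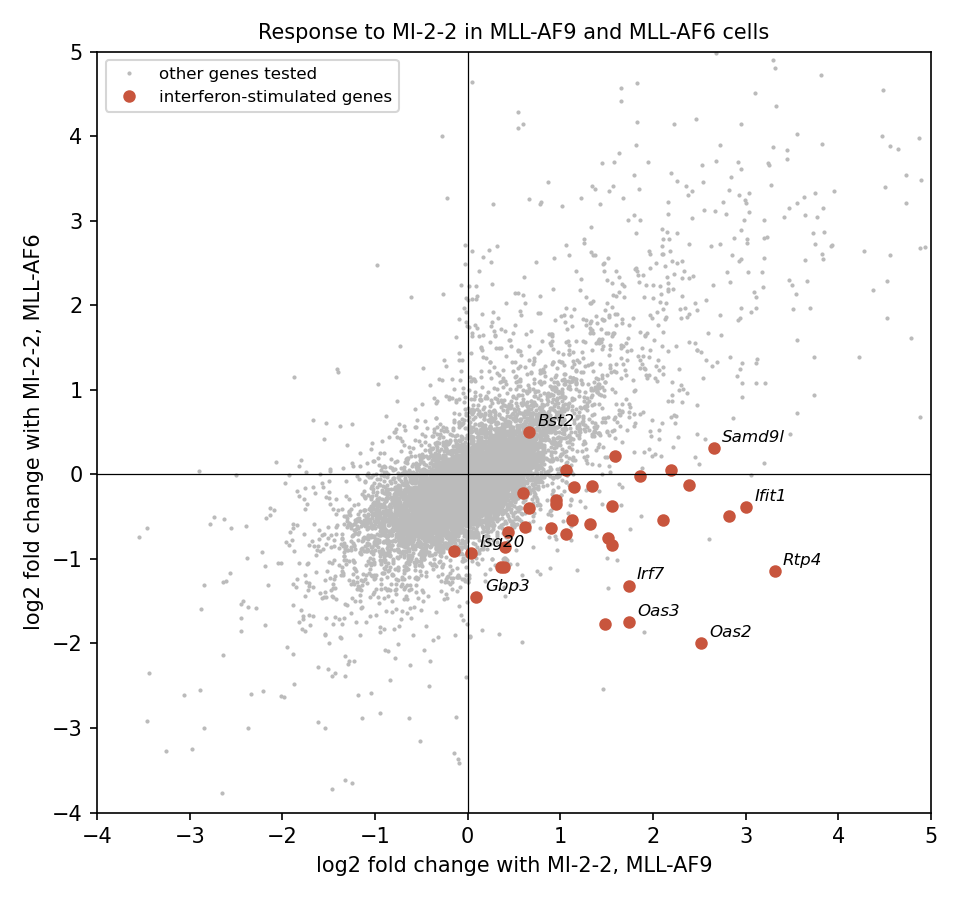
Log2 fold change with MI-2-2 in MLL-AF9 (horizontal axis) against that in MLL-AF6 (vertical axis), with each tested gene as a gray point and the 36 members in red; 38 genes lie beyond the axes. Most members lie in the lower right, with Oas2 at 2.52 and −2.0.

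The difference of the MI-2-2 effect between constructs was tested directly. By an F test over the 3 constructs, 34 of the 36 members differed, where 52.8% of all genes did; Bst2 (adjusted p = 0.418) and Isg20 (adjusted p = 0.0534) were the exceptions. The 34, and the 36 behind the next counts, include Ifit1 and Ifit3, which passed the filter through treated libraries alone. The effect was lower in MLL-AF6 than in MLL-AF9 for 35 members (24% of all genes) and higher for 0 (9.02%). It was lower in MLL-AF1p than in MLL-AF9 for 28 members (21.4%) and higher for 0 (13.6%). It was higher in MLL-AF1p than in MLL-AF6 for 22 members (19.5%) and lower for 0 (11.6%). The 3 counts of 0 by limma were also 0 at an unadjusted p under 0.05 and by voom. Without MLL-AF9 MI-2-2 replicate 1, the second of them became 1. The constructs' comparisons share libraries in pairs and are given side by side for that reason. Largest was the gap of Oas2 between MLL-AF6 and MLL-AF9, −4.52 ± 0.27 on the log2 scale (adjusted p = 1.88e-08), followed by Rtp4 at −4.46 ± 0.45 (adjusted p = 4.60e-06).

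Libraries within a group differed together. Across the 36 members, the mean log2(RPKM + 0.5) was 2.10, 2.15 and 2.29 in the MLL-AF9 DMSO libraries and 3.79, 3.18 and 3.56 with MI-2-2. It was 2.82, 2.95 and 2.91 in MLL-AF6 DMSO and 2.21, 2.35 and 2.29 with MI-2-2. In MLL-AF1p it was 2.73, 2.82 and 2.74 under DMSO and 2.99, 3.01 and 3.29 with MI-2-2. The treated MLL-AF9 libraries thus stood above, the treated MLL-AF6 libraries below and the treated MLL-AF1p libraries above their controls without overlap. Replicate 2 of MLL-AF9 MI-2-2 was the lowest of its group for 36 of 36 members, as it was for 38% of all genes, and replicate 3 of MLL-AF1p MI-2-2 was the highest of its group for 36 of 36, as it was for 29.3% of all genes. Replicate 1 of MLL-AF9 MI-2-2 was the highest of its group for 35 members, as it was for 30.7% of all genes. Without that replicate 31 members rose in MLL-AF9, Dhx58 and Zbp1 losing their calls. Without MLL-AF9 MI-2-2 replicate 2 the number was 33, and without MLL-AF1p MI-2-2 replicate 3, 10 rose and 5 fell in MLL-AF1p.

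**Figure D3:**
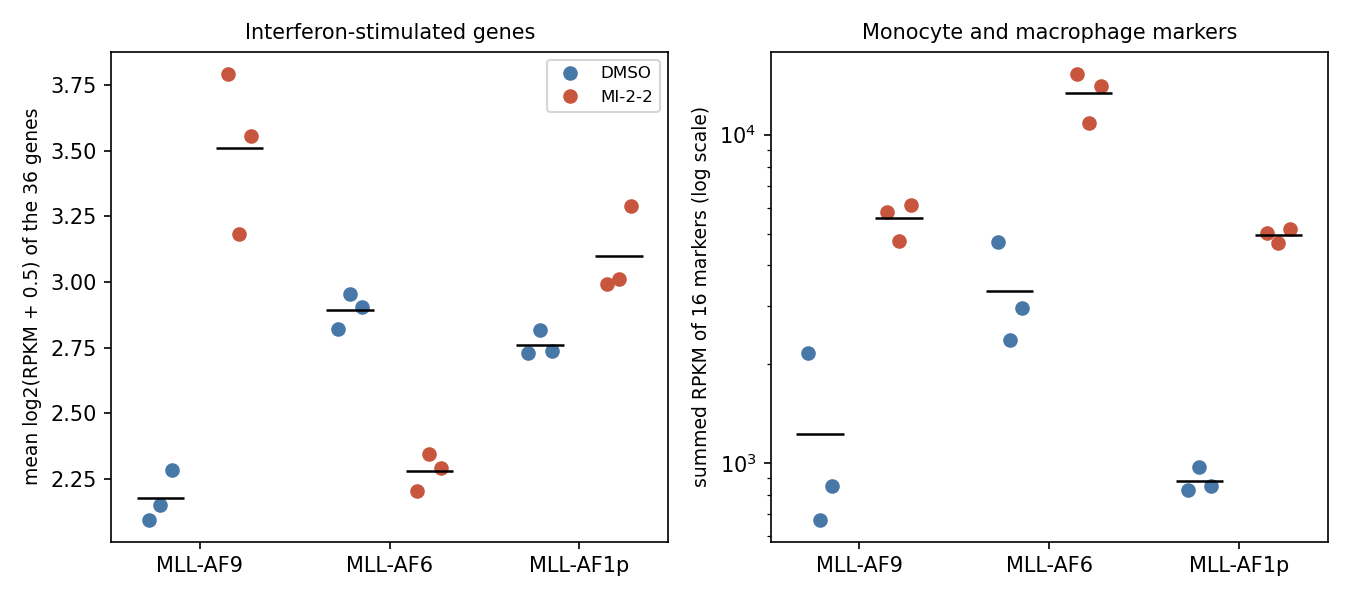
Left, mean log2(RPKM + 0.5) of the 36 members in each library; right, summed RPKM of 16 monocyte and macrophage markers on a log axis, with points for libraries and bars for group means. The members' mean is higher with MI-2-2 in MLL-AF9 and lower in MLL-AF6, while the marker sum is higher with MI-2-2 in all 3 constructs.

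Myeloid maturation markers rose with MI-2-2 in every construct, including MLL-AF6, where 24 members fell. Of 14 tested monocyte and macrophage markers, 12 rose with MLL-AF9, 13 rose with MLL-AF1p, and 10 rose and 1 fell with MLL-AF6. Of all genes, 28.5% rose with MLL-AF9, 19.1% with MLL-AF1p and 18% with MLL-AF6. The summed level of the 16 markers listed in the table lay between 673 and 2162 RPKM under DMSO and between 4751 and 6112 with MI-2-2 in MLL-AF9. In MLL-AF6 it lay between 2366 and 4720 under DMSO and between 10865 and 15326 with MI-2-2, and in MLL-AF1p between 828 and 976 and between 4665 and 5171. Of 12 late neutrophil granule markers, 12 rose with MLL-AF9, 11 with MLL-AF6 and 10 with MLL-AF1p. Their sum lay between 2970 and 4134 RPKM under DMSO and between 25412 and 29360 with MI-2-2 in MLL-AF9, between 2437 and 3190 and between 19014 and 20795 in MLL-AF6, and between 3434 and 3872 and between 31194 and 36113 in MLL-AF1p. The part of maturing cells in the members' levels was not tested. These are bulk samples, in which fewer cells of a type and less RNA per cell cannot be told apart.

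The members that carry the signal, Stat2, Irf9 and Irf7, all rose in MLL-AF9 and all fell in MLL-AF6, and none of the 3 was called in MLL-AF1p (adjusted p = 0.0705 or more). Irf7, the inducible regulator of interferon genes, moved the most. In MLL-AF9 it stood at 2.1, 1.99 and 2.65 RPKM in the DMSO libraries and at 11.6, 6.3 and 8.69 with MI-2-2. In MLL-AF6 it stood at 4.8, 3.94 and 4.31 under DMSO and at 1.33, 1.51 and 1.49 with MI-2-2. Levels in MLL-AF1p were 2.68, 3.01 and 2.56 under DMSO and 3.39, 3.33 and 4.72 with MI-2-2. Treated libraries were above all controls in MLL-AF9 and MLL-AF1p and below all controls in MLL-AF6. The log2 fold changes were 1.74 ± 0.17 (SE, adjusted p = 4.52e-07), −1.32 ± 0.17 (adjusted p = 1.01e-05) and 0.39 ± 0.17, the last without a call (adjusted p = 0.0705) and called with each construct fitted alone, median centring or quantile normalization (adjusted p = 0.0319, 0.0460 and 0.0272) and without MLL-AF9 MI-2-2 replicate 1 or 2 (adjusted p = 0.0328 and 0.0293).

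Irf9, the DNA-binding part of ISGF3, went from 3.32, 3.58 and 3.85 RPKM to 10.9, 8.05 and 10.3 in MLL-AF9. With MLL-AF6 it went from 7.46, 7.28 and 7.74 to 4.66, 4.95 and 4.9. In MLL-AF1p it was at 5.71, 6.86 and 6.05 under DMSO and 5.69, 5.96 and 6.77 with MI-2-2. Groups were apart in the first 2 constructs and overlapped in MLL-AF1p, where the log2 fold change was −0.01 (95% interval −0.23 to 0.20). The changes were 1.32 ± 0.10 (adjusted p = 2.80e-08) in MLL-AF9 and −0.58 ± 0.10 (adjusted p = 0.000159) in MLL-AF6. Stat2, which acts with IRF9 in ISGF3, had the highest mean RPKM of the 3. It went from 20.8, 15.1 and 21.4 to 34.7, 25.5 and 31.2 RPKM in MLL-AF9 and from 22.1, 18 and 20.1 to 14.8, 14.5 and 15.8 in MLL-AF6. Levels in MLL-AF1p were 20.1, 17.9 and 19.6 under DMSO and 18.3, 18.1 and 19.7 with MI-2-2. Again the first 2 constructs separated in opposite directions and the MLL-AF1p groups overlapped, with log2 fold changes of 0.67 ± 0.12 (adjusted p = 0.000296), −0.40 ± 0.12 (adjusted p = 0.0125) and −0.04 ± 0.12 (adjusted p = 0.831). Without MLL-AF6 DMSO replicate 1, the fall of Stat2 in MLL-AF6 was −0.33 and no longer called (adjusted p = 0.0529).

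Of the genes upstream of these members, the interferon genes themselves were almost silent. Of 23 listed ligand names 19 were in the table, 0 passed the filter and 14 had no read in any library. The remaining 5 had 64 reads in all 18 libraries together, 48 of them from Ifnz, and the highest value in any library was 0.158 RPKM from 9 reads. Ifnb1, the interferon beta gene, had 6 reads in all. Interferon transcripts were thus detected by at most 9 reads of a gene in a library, and protein from serum or from other cells was not measured.

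Of 7 listed receptor genes 6 were tested. With MI-2-2, 4 rose and 1 fell in MLL-AF9, 4 rose and 1 fell in MLL-AF6, and 2 rose and 1 fell in MLL-AF1p. The shares of all genes that rose and fell were 28.5% and 27.9%, 18% and 38.9%, and 19.1% and 26.3%. Ifnar1, a chain of the type I receptor, went from 13.8 ± 1.98 RPKM (SD, n = 3) to 19.8 ± 0.385 in MLL-AF9 (log2 fold change 0.51 ± 0.08, adjusted p = 3.69e-05). In MLL-AF6 it went from 15.9 ± 0.314 to 18.9 ± 0.607 (0.24 ± 0.08, adjusted p = 0.014), and in MLL-AF1p it stood at 15.2 ± 0.465 and 15.8 ± 0.242 (0.05 ± 0.08, adjusted p = 0.598). Ifnar2, the other chain, had no call in any construct, with log2 fold changes of 0.08 ± 0.07, 0.01 ± 0.07 and −0.05 ± 0.07. The interferon gamma receptor chains moved apart from each other, Ifngr1 with log2 fold changes of −0.70 ± 0.10, −0.61 ± 0.10 and −0.67 ± 0.10 and Ifngr2 with 1.26 ± 0.09, 0.92 ± 0.09 and 0.40 ± 0.09, all with a call. Il10rb, a chain shared by the lambda interferon and interleukin receptors, rose in MLL-AF9 and MLL-AF6 (0.91 ± 0.09 and 0.85 ± 0.09). Ifnlr1, the remaining tested receptor gene, rose by 1.72 ± 0.16, 0.52 ± 0.16 and 0.54 ± 0.16, each with a call.

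Kinases, STATs and other interferon regulatory factors gave 8 rises and 1 fall among 11 tested genes in MLL-AF9, 3 rises and 3 falls in MLL-AF6, and 5 rises in MLL-AF1p. For comparison, 28.5%, 18% and 19.1% of all genes rose in the 3 constructs, in that order. The shares that fell were 27.9%, 38.9% and 26.3%. Irf8, the factor of monocyte development, went from 0.46, 0.802 and 0.776 RPKM to 13.2, 13.2 and 13.4 in MLL-AF9. It was at 15.9, 28.2 and 20.4 in MLL-AF6 DMSO and at 17.9, 18 and 18.5 in MLL-AF1p DMSO, so the MLL-AF9 controls stood far below the other controls. Its log2 fold changes were 3.56 ± 0.15, 0.73 ± 0.15 and 0.62 ± 0.15. Irf5, a factor downstream of Toll-like receptors, rose by 1.67 ± 0.17, 2.25 ± 0.17 and 1.75 ± 0.17, and the difference between constructs was not called (adjusted p = 0.1). Irf1 rose in MLL-AF9 (0.28 ± 0.07) and fell in MLL-AF6 (−0.23 ± 0.07, adjusted p = 0.0109).

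All 4 members of the ISG15 system rose in MLL-AF9, 3 of 4 fell in MLL-AF6, and MLL-AF1p gave 3 rises and 1 fall. Usp18, the protease that removes ISG15 and blocks signaling at the receptor, was at 1.77, 1.07 and 1.33 RPKM in MLL-AF9 DMSO and at 13.7, 5.64 and 10.2 with MI-2-2. It was at 2.8, 2.16 and 2.17 and then 2.45, 1.48 and 2.56 in MLL-AF6, groups that overlap. In MLL-AF1p it went from 1.27, 1.68 and 1.1 to 3.92, 3.39 and 6.32. The rises in MLL-AF9 and MLL-AF1p were 2.39 ± 0.27 (adjusted p = 2.59e-06) and 1.42 ± 0.27 (adjusted p = 0.000647), and the value in MLL-AF6 was −0.13 ± 0.27 (adjusted p = 0.706). Usp18 differed between MLL-AF6 and MLL-AF9 (−2.52, adjusted p = 0.000208) but was not called different between MLL-AF1p and MLL-AF9 (−0.97 ± 0.39, 95% interval −1.80 to −0.14).

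Isg15 itself was at 8.32, 7.93 and 7.13 RPKM in MLL-AF9 DMSO and at 37.9, 15.6 and 22.8 with MI-2-2. Its MLL-AF6 levels went from 4.54, 5.88 and 5.52 to 2.32, 3.42 and 2.57. In MLL-AF1p it went from 3.4, 4.71 and 3.27 to 7.73, 8.25 and 11.6, so that treated and control libraries were apart in each construct. The log2 fold changes were 1.56 ± 0.24, −0.84 ± 0.24 and 1.17 ± 0.24, and the call in MLL-AF6 (adjusted p = 0.00849) was lost with voom on recovered reads (adjusted p = 0.0694). Trim25, a ubiquitin and ISG15 ligase that activates RIG-I, had the highest mean level of the 4. It went from 20.6, 18.8 and 19.4 RPKM to 32.4, 26.7 and 30.7 in MLL-AF9 and from 25.5, 27.4 and 28.1 to 22.1, 22 and 25.2 in MLL-AF6. In MLL-AF1p it went from 23, 22.4 and 22.7 to 25.8, 25.5 and 26.6. Its groups did not overlap but its changes were small, at 0.60 ± 0.07, −0.22 ± 0.07 and 0.19 ± 0.07. The adjusted p was 0.0155 in MLL-AF6 and 0.0424 in MLL-AF1p. The MLL-AF6 call ended without MLL-AF6 DMSO replicate 3 or MI-2-2 replicate 1 or 2 (adjusted p = 0.0606 to 0.0644) and with median centring (adjusted p = 0.124), and the MLL-AF1p call ended without any of 9 libraries, all 6 of MLL-AF1p among them (adjusted p = 0.05 to 0.121). Quantile normalization also ended the MLL-AF6 call (adjusted p = 0.144), and using no filter ended that in MLL-AF1p (adjusted p = 0.0603). Herc6, in mouse the main ligase that attaches ISG15, rose by 0.95 ± 0.12 in MLL-AF9 and fell by 0.31 ± 0.12 in MLL-AF6 and fell by 0.50 ± 0.12 in MLL-AF1p. Its MLL-AF6 call (adjusted p = 0.0366) ended without MLL-AF6 DMSO replicate 2 or 3 or MI-2-2 replicate 1 or 3 (adjusted p = 0.0601 to 0.175, the last at −0.21 without MI-2-2 replicate 1) and with median centring (adjusted p = 0.115). That call was also lost with no filter, quantile normalization, the construct fitted alone or reads thinned to the smallest library (adjusted p = 0.0749, 0.0604, 0.0580 and 0.0734).

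The 5 sensors and editing genes all rose in MLL-AF9 and all fell in MLL-AF6, with 1 rise and 1 fall in MLL-AF1p. Dhx58, encoding LGP2, which modulates the other RIG-I-like receptors, had the highest mean level. It was at 15.6, 18.4 and 21.1 RPKM in MLL-AF9 DMSO and 31, 20.9 and 23.6 with MI-2-2, groups that overlapped. It went from 12.5, 15 and 12.7 to 7.3, 8.56 and 8.46 in MLL-AF6, where all treated libraries were below the controls, and in MLL-AF1p it was at 13.5, 11.2 and 12.9 and 10.4, 10.2 and 13.3. The changes were 0.44 ± 0.14 (adjusted p = 0.018), −0.69 ± 0.14 (adjusted p = 0.000877) and −0.15 ± 0.14 (adjusted p = 0.412). The MLL-AF9 call ended without MLL-AF9 MI-2-2 replicate 1 (0.28, adjusted p = 0.112) and also when MLL-AF9 DMSO replicate 1 was left out (0.33, adjusted p = 0.0802). With the construct fitted alone it was lost as well (adjusted p = 0.0794).

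Zbp1, a sensor of Z-form nucleic acid that starts necroptosis, changed the most of the 5 on average. It was at 2.53, 3.37 and 3.86 RPKM in MLL-AF9 DMSO and 5.37, 3.91 and 3.94 with MI-2-2. With MLL-AF6 it went from 5.47, 7.18 and 6.59 to 2.53, 2.65 and 3, and in MLL-AF1p from 9.13, 8.84 and 8.12 to 4.4, 4.93 and 6.59. Groups were just apart in MLL-AF9 and well apart in the other 2 constructs. Its log2 fold change was −1.09 ± 0.16 in MLL-AF6 (adjusted p = 2.86e-05) and −0.68 ± 0.16 in MLL-AF1p (adjusted p = 0.00246). The rise in MLL-AF9, 0.39 ± 0.16 (adjusted p = 0.0455), ended without MLL-AF9 MI-2-2 replicate 1 (0.25, adjusted p = 0.214), without MLL-AF9 DMSO replicate 1 (0.24, adjusted p = 0.201), without any of 9 further libraries (adjusted p = 0.0513 to 0.0607), and when low genes were not filtered out (adjusted p = 0.104). The call was also lost with median centring, quantile normalization, the construct fitted alone or voom (adjusted p = 0.105, 0.100, 0.124 and 0.0884). Ddx58 rose by 1.12 ± 0.13 in MLL-AF9 and fell by 0.53 ± 0.13 in MLL-AF6. Ifih1, encoding the RNA sensor MDA5, rose by 0.40 ± 0.10 and fell by 0.86 ± 0.10. Adar, which edits adenosine in double-stranded RNA, rose by 0.96 ± 0.07 in MLL-AF9 and 0.37 ± 0.07 in MLL-AF1p and fell by 0.35 ± 0.07 in MLL-AF6.

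The oligoadenylate synthetases, which activate the ribonuclease RNase L, and the kinase PKR, which halts translation, include Oas2, the member with the largest gap between constructs. With MLL-AF9 all 5 tested members of this role rose, with MLL-AF6 4 fell, and with MLL-AF1p 4 rose. Oas2 was at 4.16, 4.67 and 5.46 RPKM in MLL-AF9 DMSO and at 34.9, 22.2 and 33.3 with MI-2-2. In MLL-AF6 it went from 8.32, 6.89 and 7.47 to 1.01, 1.94 and 1.71, and in MLL-AF1p from 3.62, 3.94 and 3.54 to 5.28, 5.07 and 7.61. No treated library overlapped a control. The changes were 2.52 ± 0.19 (adjusted p = 2.71e-08), −2.0 ± 0.19 (adjusted p = 4.08e-07) and 0.61 ± 0.19 (adjusted p = 0.0176). The MLL-AF1p call ended without MLL-AF1p MI-2-2 replicate 3 (0.44, adjusted p = 0.0990) and without MLL-AF1p DMSO replicate 3 (0.58, adjusted p = 0.0525).

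Oasl2, a synthetase-like gene of the mouse, changed the most on average, from 0.129, 0.246 and 0.186 RPKM to 6.24, 3.15 and 4.12 in MLL-AF9. In MLL-AF6 it was at 0.926, 1.86 and 1.46 and then 0.706, 0.985 and 0.807, and in MLL-AF1p it went from 0.52, 0.818 and 0.534 to 4.24, 4.11 and 7.04. The rises were 2.82 ± 0.23 and 2.30 ± 0.23, both clear of the controls, and the overlapping MLL-AF6 groups gave −0.50 ± 0.23 (adjusted p = 0.0788), which was −0.69 and called without MLL-AF6 DMSO replicate 1 (adjusted p = 0.0238). Oas3 rose by 1.74 ± 0.26 in MLL-AF9 and fell by 1.75 ± 0.26 in MLL-AF6. Its rise of 0.70 ± 0.26 in MLL-AF1p (adjusted p = 0.0362) ended without MLL-AF1p MI-2-2 replicate 3 (0.50, adjusted p = 0.167) and when any of 4 other MLL-AF1p libraries was left out (adjusted p = 0.0563 to 0.0922). With no filter that rise was not called either (adjusted p = 0.0967). Oas1a, whose reads could be shared with the other Oas1 copies, changed by 1.06 ± 0.11, −0.71 ± 0.11 and 0.41 ± 0.11, each with a call.

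Eif2ak2, encoding PKR, had the highest mean RPKM of this role. It went from 15.5, 11.3 and 14.7 to 23.8, 18.8 and 21.3 RPKM in MLL-AF9 and from 21.7, 19.3 and 19.7 to 13.1, 13.9 and 12 in MLL-AF6. In MLL-AF1p it was at 19.95, 19.9 and 19.1 and 18.1, 20.2 and 21.2. Its log2 fold changes of 0.61 ± 0.11 and −0.62 ± 0.11 were of nearly equal size, and its overlapping groups in MLL-AF1p gave 0.01 ± 0.11 (adjusted p = 0.948). Oasl1, below the filter, was at 0.0211, 0 and 0 RPKM in MLL-AF9 DMSO and 0.306, 0.066 and 0.155 with MI-2-2, and at no more than 0.0620 in any MLL-AF6 library. Levels in MLL-AF1p were 0.00833, 0.0191 and 0.0192 and then 0.0887, 0.118 and 0.268.

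**Figure D4:**
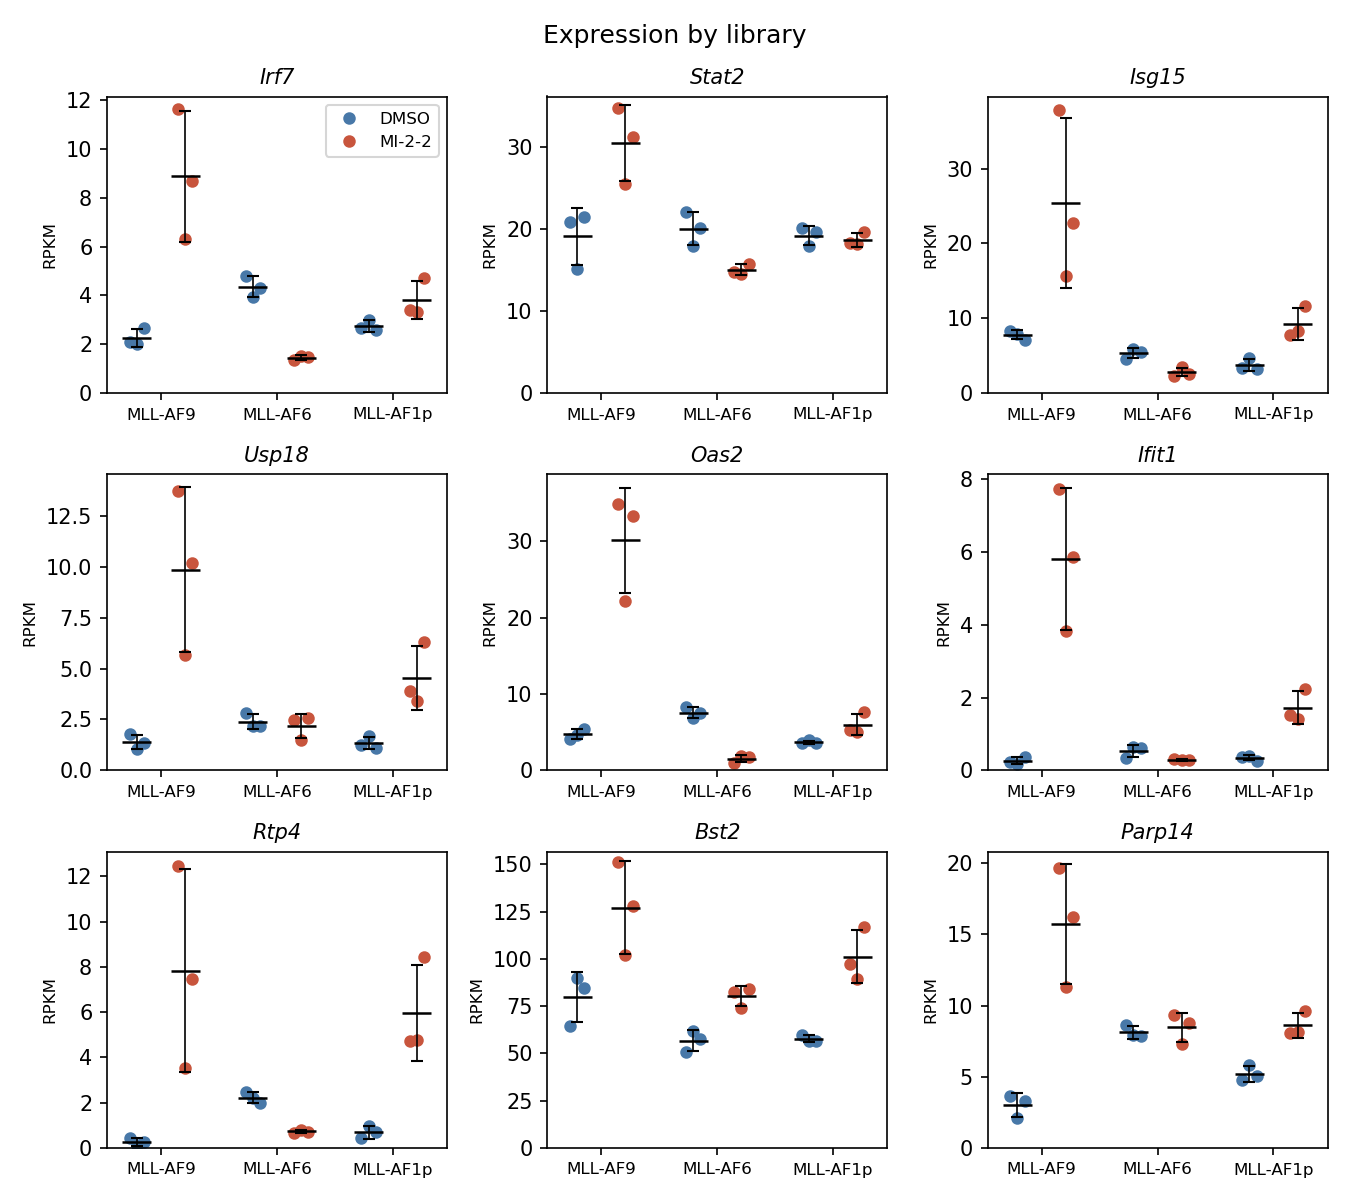
RPKM of 9 members in each library by construct, DMSO in blue and MI-2-2 in red, with the mean and SD of 3 libraries as bars. In MLL-AF9 all 9 panels have the treated libraries on top. In MLL-AF6, Irf7, Stat2, Isg15, Oas2 and Rtp4 have them at the bottom, as does Ifit1, whose difference there was not called.

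The 3 IFIT genes, whose proteins bind viral RNA and block its translation, rose in MLL-AF9 and had no call in MLL-AF6, and 2 of them rose in MLL-AF1p. Ifit1 and Ifit3 reached 1 RPKM in treated MLL-AF9 and MLL-AF1p libraries alone and so passed the filter through the groups where they are high. Ifit1 was nearly silent in controls. It went from 0.239, 0.19 and 0.365 RPKM to 7.73, 3.82 and 5.87 in MLL-AF9 and from 0.377, 0.409 and 0.263 to 1.52, 1.41 and 2.24 in MLL-AF1p. In MLL-AF6 it was at 0.351, 0.656 and 0.61 under DMSO and 0.309, 0.276 and 0.281 with MI-2-2. Treated MLL-AF6 libraries were below their controls, but the log2 difference of −0.39 ± 0.20 was not called (adjusted p = 0.108), and with a pseudocount of 0.1 it was −0.68 and called (adjusted p = 0.0413), as it was without MLL-AF9 MI-2-2 replicate 2 or MLL-AF6 DMSO replicate 1 (adjusted p = 0.0488 for each). The rises were 3.00 ± 0.20 (adjusted p = 5.02e-09) and 1.37 ± 0.20 (adjusted p = 4.65e-05). Ifit3, whose reads could be shared with its near copy Ifit3b, rose by 1.86 ± 0.17 and 1.46 ± 0.17 and stood at 0.0812 ± 0.0374 and 0.0727 ± 0.0364 RPKM in MLL-AF6. Ifit2 had the highest mean level of the 3. It went from 2.45, 2.1 and 2.64 to 5.99, 4.7 and 5.9 RPKM in MLL-AF9. It was at 1.01, 1.59 and 1.73 and 1.53, 1.57 and 1.39 in MLL-AF6, and at 3.64, 3.58 and 4.03 and 4.12, 4.43 and 4.77 in MLL-AF1p. The MLL-AF9 value of 1.06 ± 0.13 was called. The groups overlapped in MLL-AF6 and were narrowly apart in MLL-AF1p, with 0.06 ± 0.13 and 0.22 ± 0.13 and no call.

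Of the GTPases, which attack viral capsids or the membranes around microbes, Gbp3 moved unlike most members. It was at 1.33, 1.7 and 1.45 RPKM in MLL-AF9 DMSO and 2.08, 1.25 and 1.62 with MI-2-2, which overlap. With MLL-AF6 it went from 11.5, 17 and 13.8 to 4.66, 5.77 and 4.03, and in MLL-AF1p from 16, 17 and 16.6 to 8.15, 8.53 and 8.6. The log2 fold changes were −1.45 ± 0.15 (adjusted p = 8.96e-07) and −0.93 ± 0.15 (adjusted p = 0.000128), from control levels far above those of MLL-AF9. Gbp2 rose in MLL-AF9 by 1.58 ± 0.18, from 0.219 ± 0.113 to 1.68 ± 0.485 RPKM, a treated level close to that of the MLL-AF6 and MLL-AF1p controls (1.46 ± 0.495 and 2 ± 0.205). Reads of the guanylate-binding genes could be shared among near copies.

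The Mx genes stayed below the filter. Mx1, of which C57BL/6 mice carry a defective copy, had no read in the 3 MLL-AF9 DMSO libraries and stood at 0.0461, 0.0575 and 0.0772 RPKM with MI-2-2. In MLL-AF1p it was at 0.0226, 0.063 and 0 under DMSO and at 0.343, 0.412 and 0.527 with MI-2-2, the last from 147 reads. MLL-AF6 libraries did not pass 0.0513. Mx2 was at 0, 0.0187 and 0 and 0.283, 0.0939 and 0.213 in MLL-AF9, and at 0.0146, 0.0168 and 0.00841 and 0.163, 0.144 and 0.255 in MLL-AF1p. In both constructs the treated libraries were above the controls, and in MLL-AF6 the highest Mx2 value was 0.0402. These values had no test.

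Among the other antiviral effectors, 5 of 6 rose in MLL-AF9, 4 fell and 1 rose in MLL-AF6, and 2 rose in MLL-AF1p. Rtp4, which binds RNA and limits viral replication, had the largest rise of any member in MLL-AF9. It went from 0.429, 0.116 and 0.24 RPKM to 12.5, 3.53 and 7.46 in MLL-AF9 and from 2.48, 2.22 and 1.98 to 0.662, 0.809 and 0.718 in MLL-AF6. In MLL-AF1p it went from 0.417, 0.984 and 0.688 to 4.73, 4.74 and 8.43. All 3 constructs had separate groups, and the treated MLL-AF9 libraries were the most spread. The changes were 3.31 ± 0.32 (adjusted p = 3.92e-07), −1.15 ± 0.32 (adjusted p = 0.00675) and 2.41 ± 0.32 (adjusted p = 2.23e-05).

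Bst2 was by contrast alike in direction everywhere. It went from 64.6, 89.9 and 84.8 RPKM to 151, 102 and 128 in MLL-AF9 and from 50.6, 62 and 57.7 to 82.7, 74.2 and 83.9 in MLL-AF6. In MLL-AF1p it went from 59.8, 56.6 and 56.6 to 97.3, 89.3 and 117. Treated libraries were above the controls in each construct, by 0.66 ± 0.14, 0.50 ± 0.14 and 0.80 ± 0.14 (adjusted p = 0.00093, 0.00733 and 0.000313). The difference between MLL-AF6 and MLL-AF9 was −0.17, with a 95% interval of −0.59 to 0.26, and a missed threshold does not show that the constructs respond alike.

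Cmpk2, a mitochondrial nucleotide kinase, and its neighbor Rsad2, encoding viperin, which makes a chain-terminating nucleotide, both rose in MLL-AF9 and fell in MLL-AF6. Cmpk2 changed by 1.48 ± 0.19 and −1.77 ± 0.19, its MLL-AF6 level going from 4.38 ± 0.143 to 0.945 ± 0.28 RPKM, and Rsad2 by 1.52 ± 0.23 and −0.75 ± 0.23. Samd9l, a translation inhibitor, rose in MLL-AF9 by 2.66 ± 0.23, from 1.28, 3.36 and 3.24 RPKM to 20.3, 14.9 and 19.5. Its MLL-AF6 and MLL-AF1p controls already stood at 13.8 ± 1.43 and 22.8 ± 4.26, and their changes of 0.31 ± 0.23 and 0.17 ± 0.23 were not called. Isg20, an exonuclease, fell by 0.93 ± 0.23 in MLL-AF6. Its value of −0.58 ± 0.23 in MLL-AF1p missed the threshold (adjusted p = 0.0513) and passed it with voom, a pseudocount of 1 or the construct fitted alone (adjusted p = 0.00708, 0.0445 and 6.81e-05) and without MLL-AF9 DMSO replicate 1 or 2 (adjusted p = 0.00185 and 0.0211).

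Parp9, Dtx3l and Parp14, an ADP-ribosyltransferase group with a ubiquitin ligase that acts in DNA repair, rose in MLL-AF9, and none was called in MLL-AF6 (adjusted p = 0.822, 0.203 and 0.225 for Parp14, Dtx3l and Parp9). Parp14 went from 3.66, 2.09 and 3.32 RPKM to 19.7, 11.3 and 16.3 in MLL-AF9 and from 4.74, 5.81 and 5.02 to 8.06, 8.12 and 9.64 in MLL-AF1p. In MLL-AF6 it was at 8.63, 7.9 and 7.83 and 9.33, 7.33 and 8.77, which overlap. Its changes were 2.20 ± 0.18 (adjusted p = 6.94e-08), 0.05 ± 0.18 (adjusted p = 0.822) and 0.68 ± 0.18 (adjusted p = 0.00689). Dtx3l, the ligase, which had the highest mean RPKM of the 3, went from 5.67, 5.22 and 5.82 to 14.2, 11.2 and 13.5 RPKM in MLL-AF9. It was at 8.06, 10.1 and 8.52 and 7.19, 8.43 and 8.18 in MLL-AF6, and at 8.77, 10.3 and 9.36 and 9.55, 10.02 and 10.6 in MLL-AF1p. The rise was 1.15 ± 0.10, and the overlapping groups of MLL-AF6 and MLL-AF1p gave −0.15 ± 0.10 and 0.08 ± 0.10. Parp9, which lies beside Dtx3l, rose by 1.35 ± 0.10 in MLL-AF9, with −0.14 ± 0.10 and 0.05 ± 0.10 in the others.

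The remaining 5 tested members gave 4 rises in MLL-AF9, 4 falls in MLL-AF6 and 1 fall in MLL-AF1p. Sp100, a nuclear body protein that silences incoming viral DNA, had the highest RPKM of the members under DMSO in MLL-AF6. It went from 43.6, 43.8 and 50.00 RPKM to 59.1, 55.5 and 62.5 in MLL-AF9. In MLL-AF6 it went from 106, 124 and 111 to 49.5, 58.2 and 51.5, and in MLL-AF1p from 94.9, 108 and 98 to 69.1, 72.2 and 73.8. All 3 constructs separated, and the treated levels ended nearer to each other than the control levels had been. The changes were 0.36 ± 0.08 (adjusted p = 0.00123), −1.09 ± 0.08 (adjusted p = 1.87e-08) and −0.48 ± 0.08 (adjusted p = 0.000187).

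Xaf1, a promoter of apoptosis, went from 0.363, 0.804 and 0.898 RPKM to 5.36, 3.61 and 4.7 in MLL-AF9. With MLL-AF6 it went from 1.38, 2.01 and 2.03 to 0.864, 1.36 and 1.05, and in MLL-AF1p it was at 1.44, 1.84 and 1.61 and 2.21, 2.22 and 3.01. Every treated library was beyond the controls of its construct. The MLL-AF9 rise was 2.10 ± 0.19 (adjusted p = 1.97e-07). The MLL-AF6 log2 fold change was −0.53 ± 0.19 (adjusted p = 0.0265). Its call ended without MLL-AF6 DMSO replicate 2 or 3 or MI-2-2 replicate 1 or 3 (adjusted p = 0.0643 to 0.108). It also ended with median centring or no filter (adjusted p = 0.0595 and 0.0707). The MLL-AF1p value of 0.48 ± 0.19 (adjusted p = 0.0526) was called with median centring, voom, quantile normalization, a pseudocount of 1 or the construct fitted alone (adjusted p = 0.0122 to 0.0411) and on leaving out any of 6 libraries of the other constructs (adjusted p = 0.0223 to 0.0499). Trim21, an intracellular antibody receptor, rose by 0.90 ± 0.10 in MLL-AF9 and fell by 0.64 ± 0.10 in MLL-AF6. Lgals3bp, a secreted glycoprotein, rose by 1.55 ± 0.19 in MLL-AF9 from 22.2 ± 7.41 RPKM. Its MLL-AF6 value of −0.38 ± 0.19 was called without MLL-AF9 DMSO replicate 1 or 2 (adjusted p = 0.0231 and 0.0423). Ifi35, a regulator of RIG-I signaling, fell by 0.91 ± 0.10 in MLL-AF6 and gave −0.15 ± 0.10 in MLL-AF9. Ifi44 had at most 12 reads in any library.

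Levels before treatment differed between constructs as well, most often with MLL-AF9 lowest. Under DMSO, 23 of the 36 members were higher and 3 lower in MLL-AF6 than in MLL-AF9, where 29.1% of all genes were higher and 24.5% lower. In MLL-AF1p against MLL-AF9, 21 were higher and 5 lower (36.5% and 28.6% of all genes). In MLL-AF1p against MLL-AF6, 5 were higher and 12 lower (28.8% and 23.7%), but the 5 became 2 without MLL-AF6 DMSO replicate 1 or MLL-AF1p DMSO replicate 1, and 3 without MLL-AF6 DMSO replicate 3 or MLL-AF1p DMSO replicate 2 or 3. The members' median differences were 0.62, 0.58 and −0.21 on the log2 scale.

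**Figure D5:**
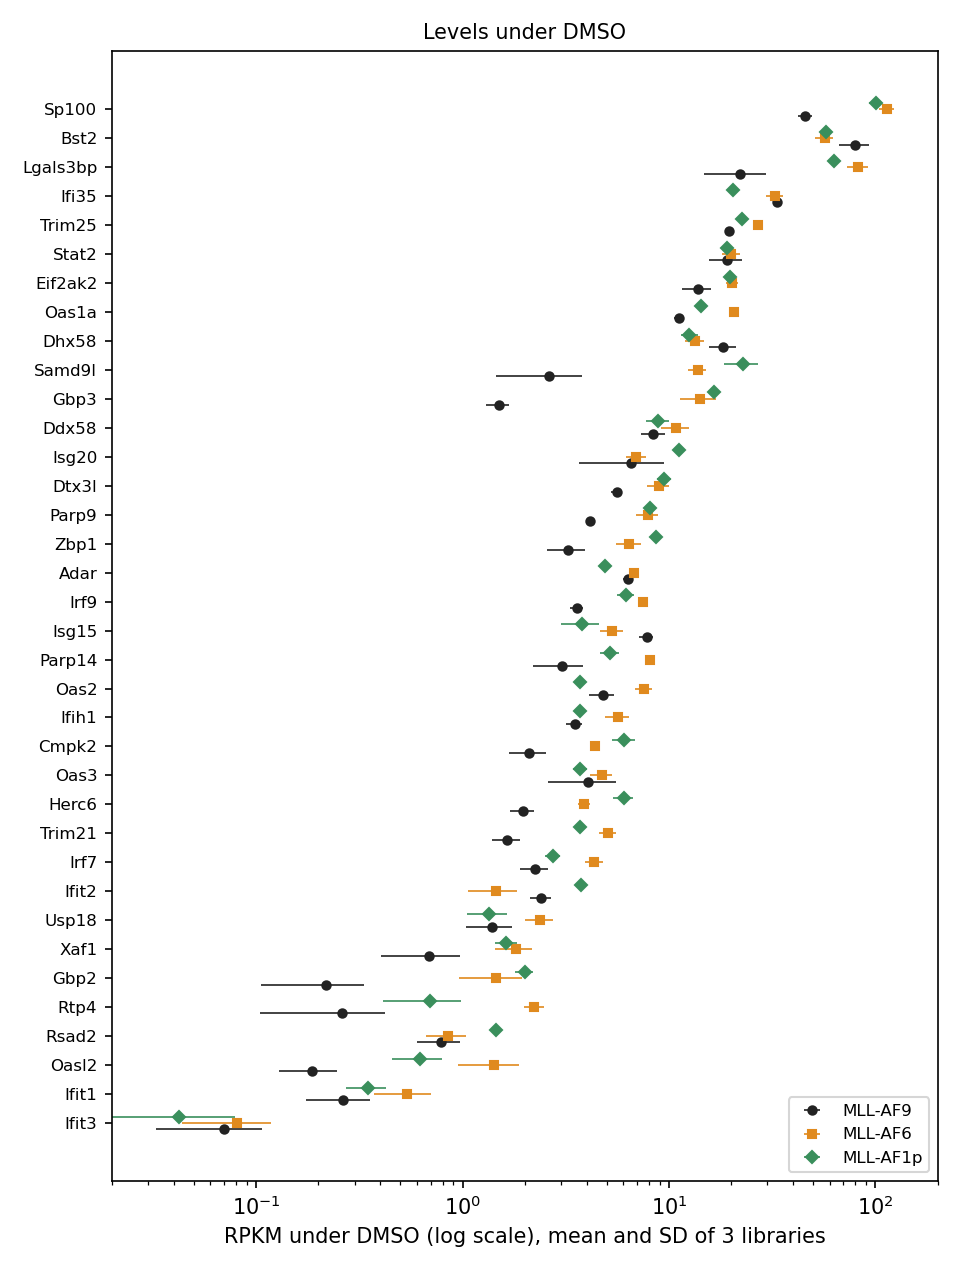
RPKM under DMSO on a log axis for the 36 tested members, mean and SD of 3 libraries per construct, ordered by mean level; the lower end of the MLL-AF1p bar of Ifit3 runs off the axis. MLL-AF9 lies left of the other constructs for most members, far to the left for Gbp3, Gbp2 and Samd9l.

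The widest of these gaps belonged to Gbp3, at 1.49 ± 0.191 RPKM (SD, n = 3) in MLL-AF9 against 14.1 ± 2.76 for MLL-AF6 and 16.5 ± 0.489 for MLL-AF1p. Its log2 differences from MLL-AF9 were 2.86 ± 0.15 (adjusted p = 4.03e-10) and 3.10 ± 0.15 (adjusted p = 1.56e-10). Samd9l followed, with 2.27 ± 0.23 and 2.97 ± 0.23. Lgals3bp stood at 1.92 ± 0.19 for MLL-AF6 and Gbp2 at 1.81 ± 0.18 for MLL-AF1p. Rtp4 was at 0.262 ± 0.158 RPKM in MLL-AF9 against 2.23 ± 0.25 in MLL-AF6 and 0.697 ± 0.284 in MLL-AF1p. Irf9 was higher than in MLL-AF9 by 0.97 ± 0.10 in MLL-AF6 and 0.71 ± 0.10 in MLL-AF1p, while Stat2 did not pass the threshold between any of the constructs (0.08 ± 0.12 for MLL-AF6 and 0.02 ± 0.12 for MLL-AF1p). Isg15, Bst2 and Dhx58 were on the other side. Isg15 differed by −0.96 ± 0.24 in MLL-AF1p against MLL-AF9 (adjusted p = 0.00268), Bst2 differed by −0.48 ± 0.14 and −0.45 ± 0.14, and Dhx58 by −0.44 ± 0.14 and −0.52 ± 0.14. Sums of markers of other cell types differed between the same controls. The 10 plasmacytoid markers summed to 5.12 to 17.3 RPKM in MLL-AF9 DMSO, 17.6 to 31.6 in MLL-AF6 DMSO and 25.3 to 32.4 in MLL-AF1p DMSO, and the 7 conventional dendritic markers to 3.67 to 10.4, 21.8 to 29.6 and 24.1 to 27.0. Among these markers Lair1 reached 22.1 RPKM and H2-Ab1 28.3. Siglech, Klk1, Ccr9 and Pacsin1 stayed at or below 0.0672 in every library, and Zbtb46 and Cd209a at or below 0.0155. Whether dendritic cells were present, and their part in the members' levels, was not tested. The DMSO libraries enter both these differences and the changes with MI-2-2, so the comparisons are not independent.

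Genes around the 40 were read from lists of related genes. Of 58 tested further interferon-induced genes, 44 rose and 2 fell in MLL-AF9, 17 rose and 28 fell in MLL-AF6, and 16 rose and 14 fell in MLL-AF1p, with median log2 fold changes of 0.62, −0.24 and 0.13. The shares of all genes that rose and fell were 28.5% and 27.9% with MLL-AF9, 18% and 38.9% with MLL-AF6, and 19.1% and 26.3% with MLL-AF1p. By the mean size over the 3 constructs, the 4 leading genes rose in each. Ifi27l2a, a mitochondrial interferon-induced gene, went from 3.09, 5.65 and 5.82 RPKM to 68.6, 53.6 and 59.4 in MLL-AF9. It went from 1.77, 2.12 and 1.84 to 5.1, 9.65 and 6.1 in MLL-AF6, and from 3.12, 3.49 and 2.28 to 84.5, 82.1 and 124 in MLL-AF1p. Treated libraries were above the controls in each construct, with log2 fold changes of 3.55 ± 0.24, 1.58 ± 0.24 and 4.80 ± 0.24 (adjusted p = 6.44e-09, 4.45e-05 and 4.59e-10). Slfn1 and Slfn5, schlafen genes of growth control and interferon response, rose by 3.73 ± 0.14, 1.39 ± 0.14 and 2.26 ± 0.14 and by 1.96 ± 0.18, 1.39 ± 0.18 and 2.35 ± 0.18. Epsti1, induced by interferon in macrophages, rose by 2.72 ± 0.16, 1.89 ± 0.16 and 1.88 ± 0.16. Tgtp2 and Ifi47 are given after their values were seen. Tgtp2, an interferon-induced GTPase whose reads could be shared with a near copy, had the largest change of the list in MLL-AF6. It went from 2.15, 1.73 and 2.22 RPKM to 0.139, 0.194 and 0.18 there (−1.91 ± 0.12, adjusted p = 2.06e-09). Unlike most members it had no call in MLL-AF9 (0.02 ± 0.12), and it fell in MLL-AF1p (−0.86 ± 0.12, adjusted p = 2.49e-05). Ifi47, another GTPase, rose by 1.52 ± 0.14 with MLL-AF9 and fell by 1.34 ± 0.14 with MLL-AF6.

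Nucleic acid sensing genes outside the 40 gave, among 21 tested, 12 rises and 4 falls with MLL-AF9, 5 rises and 4 falls with MLL-AF6, and 11 rises and 3 falls with MLL-AF1p. Of all genes, 28.5%, 18% and 19.1% rose, and the 5 rises with MLL-AF6 are near that share. The endosomal receptors rose in all constructs, Tlr7 by 3.47 ± 0.26, 3.15 ± 0.26 and 2.72 ± 0.26, Tlr8 by 2.45 ± 0.17, 2.03 ± 0.17 and 1.99 ± 0.17, and Tlr9 by 1.14 ± 0.14, 1.96 ± 0.14 and 1.60 ± 0.14. Tax1bp1, an adaptor that limits this signaling, fell, by log2 fold changes of −1.36 ± 0.05, −1.19 ± 0.05 and −0.84 ± 0.05. Of 10 negative regulators of JAK-STAT signaling, 2 rose and 3 fell in MLL-AF9, 2 rose and 4 fell in MLL-AF6, and 2 rose and 3 fell in MLL-AF1p, shares near those of all genes in MLL-AF9 and MLL-AF6 (28.5% and 27.9%, 18% and 38.9%) and in MLL-AF1p (19.1% and 26.3%). Socs1, the feedback inhibitor of interferon receptors, fell, with log2 fold changes of −0.51 ± 0.13, −0.64 ± 0.13 and −0.46 ± 0.13, and Ptpn2, a tyrosine phosphatase of the pathway, fell with −0.73 ± 0.06, −0.78 ± 0.06 and −0.76 ± 0.06. Socs3 rose in MLL-AF6 by 1.72 ± 0.26 (adjusted p = 3.90e-05).

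Motif content can be set beside these calls as a description. Of the 26 members with a promoter window that rose in MLL-AF9, 13 held the response element core, as did 1 of the 3 with no call. Of the 20 that fell in MLL-AF6, 10 held it, and of the 8 with no call there, 3 did. Of the 9 that rose in MLL-AF1p, 6 held it, beside 1 of the 3 that fell and 7 of the 17 with no call. The windows printed above show members of unlike response with the same core, such as Oas3, which fell in MLL-AF6, and Bst2, which rose there.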

How the data were processed

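PolyA RNA of 18 libraries (6 groups of 3, unstranded) had been sequenced, and the authors deposited 1 table of RPKM values. Tools in the submitters' processing notes are edgeR, HTSeq, Bowtie2 (version 2.0.0.7) and CASAVA (version 1.8.2), and the genome there is mm9. Which step each tool did is not given in the sources used here. Every deposited RPKM value was a whole multiple of what 1 read is worth (100% within 0.05 reads), which gave depths of 21.18 to 56.3 M reads and the counts behind low values. Groups came from the labels. Genes at 1 RPKM or more in at least 3 libraries were fitted on log2(RPKM + 0.5), a scale that understates changes of low genes, with limma 3.58.1 (R 4.3.3), a mean for each of the 6 groups (12 residual degrees of freedom), a prior variance that follows the mean level, and Benjamini-Hochberg adjustment over all 11238 genes at 0.05. The fit was tested on simulated data. Figures used matplotlib 3.10.9 under Python 3.11.15. Values are mean ± SD of 3 libraries, or log2 fold change ± SE.

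The members and the gene lists were chosen with earlier results of these data known. Members shown library by library were, in each role, the one of highest mean RPKM and the one of largest mean absolute log2 fold change; Isg15, Oas2 and Samd9l were added after their values were seen. Outside the 40, receptors and regulatory factors could be named, and up to 4 genes of each other list by mean absolute log2 fold change. Alternatives were pseudocounts of 0.1 and 1, no filter, median centring, quantile normalization, a constant prior, a replicate block, separate fits, voom on recovered reads, thinning to the smallest library, and leaving out each library. Reads of near copies (Ifit3, Oas1a, Gbp genes) and of overlapping neighbors (Rsad2 and Cmpk2, Parp9 and Dtx3l) may have been split or shared. Intervals cover the spread between libraries only.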

Additional observations from a re-analysis of the deposited data

Results flagged for a closer look

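The change with MI-2-2 differed between the 3 constructs for 34 of the 36 tested members by limma's F test of the difference itself, adjusted over all genes, where 52.8% of all genes differed. Ifit1 and Ifit3 are among the 34 and passed the filter through treated libraries alone. The smallest adjusted p-values were those of Oas2 at 6.00e-08, Irf9 at 3.82e-07, Sp100 at 7.51e-07, Irf7 at 8.48e-07, Adar at 9.02e-07, Cmpk2 at 1.27e-06, Ifit1 at 1.35e-06 and Parp9 at 1.61e-06. They were followed by Oas1a at 1.61e-06, Trim21 at 2.56e-06, Oasl2 at 3.88e-06, Rtp4 at 5.94e-06, Oas3 at 1.01e-05, Xaf1 at 1.02e-05, Dtx3l at 1.06e-05, Herc6 at 1.42e-05 and Ifih1 at 2.08e-05. Next came Ddx58 at 2.36e-05, Samd9l at 3.06e-05, Parp14 at 3.36e-05, Ifit3 at 4.18e-05, Eif2ak2 at 5.51e-05, Ifi35 at 5.97e-05, Trim25 at 6.20e-05, Isg15 at 0.000113 and Gbp3 at 0.000117. The largest of the 34 were those of Lgals3bp at 0.000123, Rsad2 at 0.000168, Zbp1 at 0.000229, Gbp2 at 0.000322, Usp18 at 0.000347, Stat2 at 0.000552, Ifit2 at 0.000870 and Dhx58 at 0.00139. In the 3 with the smallest values the MLL-AF9 libraries rose and the MLL-AF6 libraries fell. These differences were not weighed against the line that carries each construct, which cannot be told apart from the construct.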

How the results depend on the processing

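Of 3024 member values recomputed under other settings, 2919 kept their side of the threshold and their direction when called, 0 of the called values reversed, and 31 changed sign with neither value past the threshold. Members that rose in MLL-AF9 numbered 31 to 33 with 1 library left out and 31 to 34 under the other settings, against 33. Members that fell in MLL-AF6 numbered 21 to 25 in both kinds of alternative, against 24. Those that rose in MLL-AF1p numbered 10 to 15 and 13 to 17, against 13. Those that fell in MLL-AF1p numbered 4, but 5 with a pseudocount of 1 and 4 to 6 with 1 library left out. They numbered 7 with the replicate block, with each construct fitted alone and with voom on recovered reads. The 3 gained with the block were Ifih1, Trim21 and Isg20 (adjusted p = 0.0416, 0.0428 and 0.0399), and Xaf1 was a gained rise (0.0287). Those that rose in MLL-AF6 numbered 1, but 2 with each construct fitted alone. The effect was higher in MLL-AF1p than in MLL-AF9 for 0 members, but for 1 with no filter or with median centring, and for 0 to 1 with 1 library left out. Under DMSO, 5 members were higher in MLL-AF1p than in MLL-AF6, but 2 with no filter, and 2 to 7 with 1 library left out. The cause of these shifts was not tested. The labels do not say whether the replicate numbers pair the libraries. Same-numbered libraries of different groups had correlations of deviations between −0.0983 and 0.627. Their medians were 0.188, 0.283 and 0.0499 for numbers 1, 2 and 3. Of the 18 libraries, 14 correlated best with their own number, which is a hint from the data and not from the design. Depth limits the genes near 0, such as Mx1, Mx2, Ifi44, Oasl1 and the interferons. Leaving out a library leaves 2 in its group.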
